A study of Rattus norvegicus with 4 samples.

Results

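The genes of the proteasome, the protease that breaks down ubiquitin-tagged proteins, were followed in the maturing rat retina. The members are the probes whose platform gene symbol starts with Psma, Psmb, Psmc, Psmd or Psme, which gave 43 of the 22575 probes of the value table and 38 of its 9653 named genes. Of these genes 33 had 1 probe and 5 had 2, and no value of a member was missing. Psma7, Psma8, Psmb11, Psmd1, Psmd11 and Psmd14 were not analysed here. Whole retinas were taken from albino Lewis rats raised under normal laboratory conditions, at 5, 11 and 20 weeks of age, and retinas were pooled before RNA extraction. Each of 4 two-colour arrays set an older retina against the 5-week retina, 2 at 11 weeks and 2 at 20 weeks, with Cy5 and Cy3 exchanged within a pair. Whether both arrays of a pair received separate RNA is not labelled, so a p-value here reflects array-to-array spread, possibly technical only, and with shared extracts there would be a single pool at each age and no test. A ratio carries no level, so the tissue label could not be checked against marker levels, and the number of arrays limits the precision.

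The proteasome has a barrel-shaped core of stacked rings. The outer rings are built from alpha subunits, which gate the entry, and the inner rings from beta subunits, some of which cut peptide bonds inside the barrel. A regulatory particle on the end of the barrel recognises ubiquitin-tagged proteins: its lid removes the ubiquitin and its base, a ring of ATPases, unfolds the protein and feeds it in. In immune cells and under interferon, Psmb8, Psmb9 and Psmb10 replace the standard catalytic subunits to form the immunoproteasome, which helps to supply peptides for MHC class I, and the activators Psme1 and Psme2 form an alternative cap. Photoreceptors renew their outer segments throughout life and depend on this system to clear misfolded proteins.

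Each value is the log2 of older over 5-week signal, relative to the median named gene of each array. Values of 4 arrays are always given in the order 11 weeks in Cy5, 11 weeks in Cy3, 20 weeks in Cy5 and 20 weeks in Cy3, naming the dye of the older retina. Cy5 was read as the numerator, which the order of the ages in the sample titles makes likely, and every sign rests on this reading. The limma model without a dye term passed 0 members in any comparison at an adjusted p under 0.05 (Benjamini-Hochberg over all named genes) and 0 of all 9653 named genes. At an unadjusted p under 0.05 it had 7 members (18.4%) at 11 weeks and 4 (10.5%) at 20 weeks, against 3.8% and 9.2% of all named genes. "Passed" below refers to the second limma model, in which each gene had a dye offset common to the 4 arrays. That model gives the same mean changes with smaller errors, but among its calls on a simulated data set the share of unchanged genes was above the share its threshold aims at. Its calls on these genes also depend on the probes used. Centring on all probes alone left 6 members lower at 11 weeks, and 14 lower and 2 higher at 20 weeks. With the probes of no listed gene both used for centring and fitted, 0 members passed at 11 weeks and 1, Psmd2, at 20 weeks. As deposited, without centring, 0 members passed at either age, and of all named genes 0 passed at 11 weeks and 133 at 20 weeks. The median gene then stood at 0.06 for 11 weeks and at 0.29 for 20 weeks. At 11 weeks 23 of the 38 members lay below 0 as deposited, and the median of all 38 was -0.06. The changes described here are therefore positions relative to the median gene. In whole retina, fewer cells of a type and less RNA per cell cannot be told apart.

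**Figure D1:**
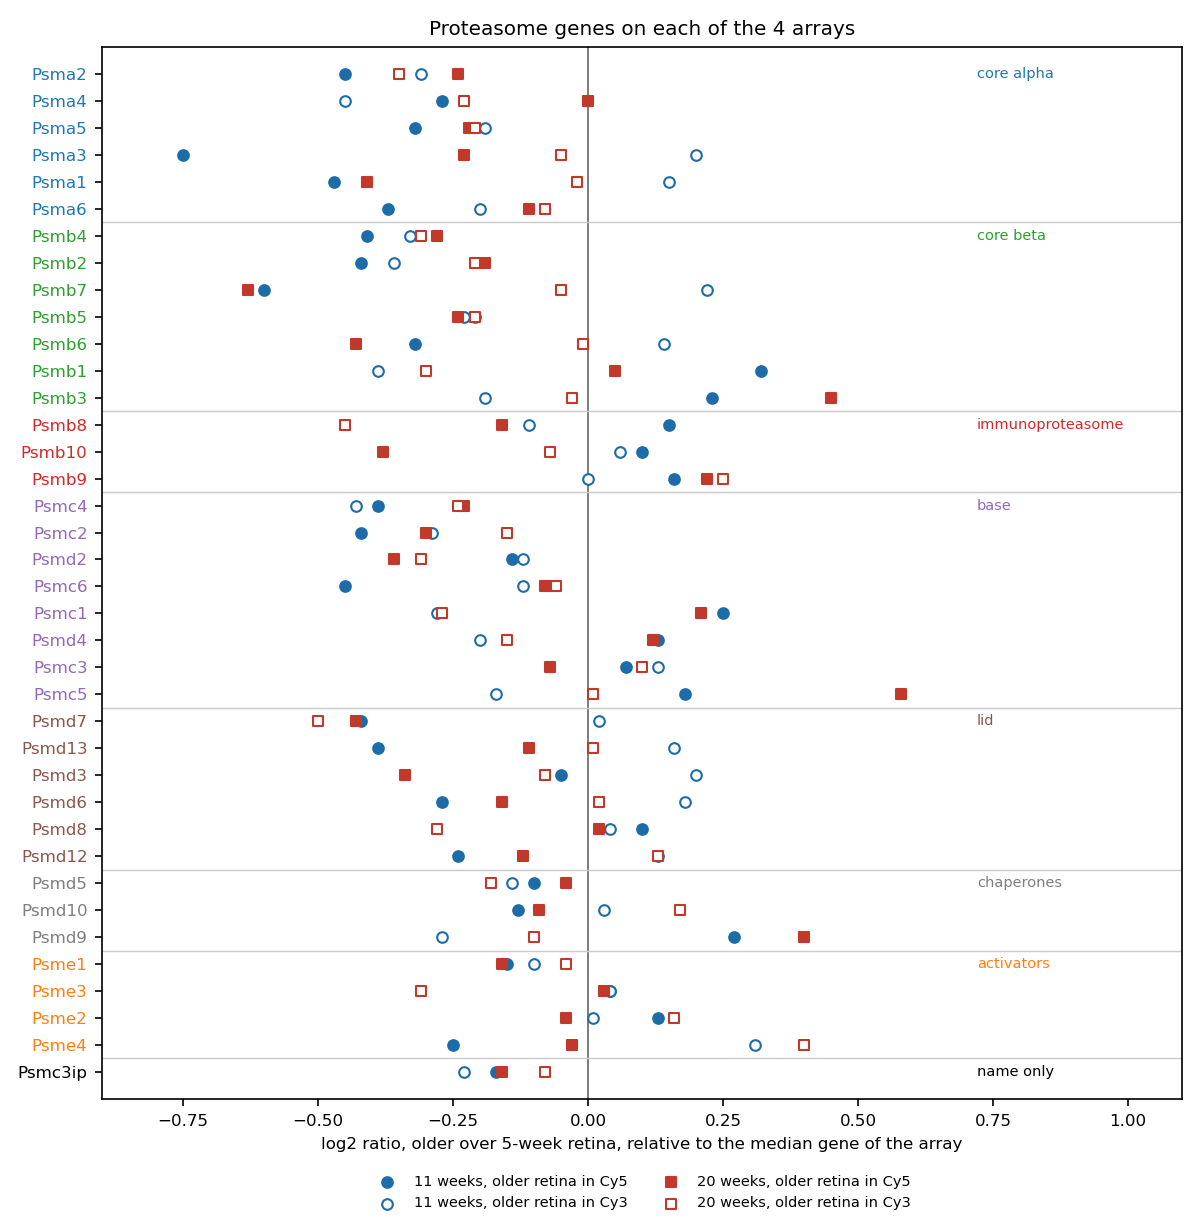
Log2 ratio of the older over the 5-week retina (x axis, relative to the median gene of the array) for each of the 38 proteasome genes (rows, by role) on each of the 4 arrays: circles are 11 weeks, squares 20 weeks, filled with the older retina in Cy5 and open in Cy3, and "name only" is Psmc3ip, which is no subunit. Left of 0 on every array lay Psma2, Psma5, Psma6, Psmb2, Psmb4, Psmb5, Psmc2, Psmc4, Psmc6, Psmd2, Psmd5, Psme1 and Psmc3ip. Psma4 did so too, but at 0.00 on the 20-week Cy5 array. Psmb1, Psmb3, Psmc1, Psmd4 and Psmd9 lay right of 0 with the older retina in Cy5 and left of it in Cy3.

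At 11 weeks the core of the proteasome lay below the median gene, and the genes that passed were core and base subunits. Of the 38 genes, 9 passed as lower and 0 as higher, against 6.34% of all named genes lower and 2.61% higher, so that 23.7% of the members were lower. At an unadjusted p under 0.05 this model had 15 members lower and 0 higher, 39.5% in all, against 27% of all named genes (1491 lower and 1112 higher). The median of the members was -0.10, against 0.02 for all named genes. On both 11-week arrays 14 members lay below the median gene and 6 above it, and 18 were split between the arrays, against 20.2% of all genes below on both and 20.5% above. By role, 4 of 6 alpha, 2 of 7 standard beta and 3 of 8 base genes passed as lower, and 0 of 6 lid, 0 of 3 immunoproteasome, 0 of 3 chaperone and 0 of 4 activator genes passed. Differences between the roles were not tested.

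At 20 weeks more members passed, and in both directions, and more of all named genes passed as well. Of the 38 genes, 15 passed as lower and 3 as higher, which is 39.5% and 7.89%, against 13.9% of all named genes lower and 17.8% higher. The median of the members was -0.12, against 0.01 for all named genes, and -0.20 without the 20-week Cy5 array. On both 20-week arrays 22 members lay below the median gene and 2 above it, against 26.7% and 27.1% of all genes. As lower passed 3 of 6 alpha, 5 of 7 beta, 2 of 3 immunoproteasome, 3 of 8 base and 2 of 6 lid genes, and as higher 1 beta, 1 immunoproteasome and 1 base gene. None of the 3 chaperones and 4 activators passed. As deposited the median of the members was 0.15, below the 0.29 of the median gene, and 6 of the 38 had a mean below 0. Both ages were set against 5-week retina, so the comparisons share it and their values are given side by side without a test of likeness.

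**Figure D2:**
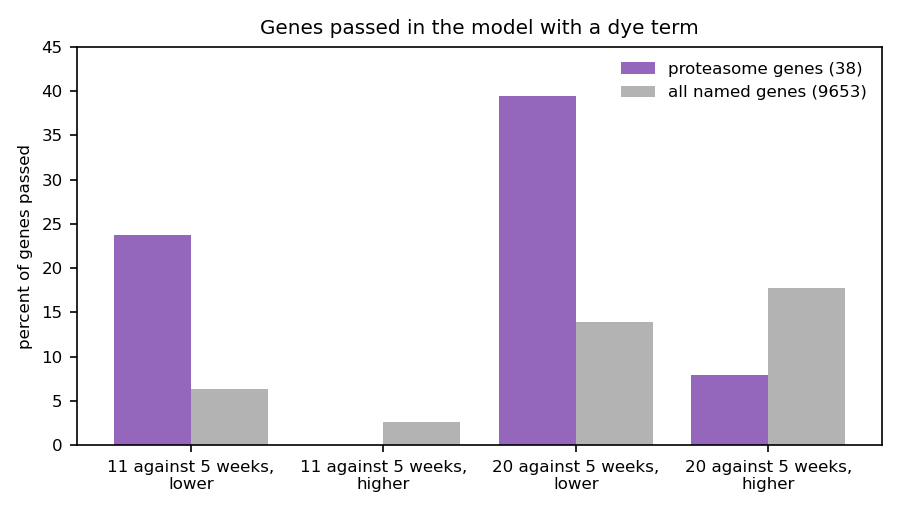
Percent of genes that passed (y axis, adjusted p under 0.05 in the limma model with a dye term) among the 38 proteasome genes (purple) and all 9653 named genes (grey), by comparison and direction. The purple bars are the taller for lower calls, 23.7 against 6.34 at 11 weeks and 39.5 against 13.9 at 20 weeks, and the shorter for higher calls, 0 against 2.61 and 7.89 against 17.8.

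All 6 measured alpha subunits, which form the outer rings and the gate of the core, had means below 0 at both ages, with medians of -0.28 at 11 weeks and -0.18 at 20 weeks. The 20-week median was -0.09 without the 20-week Cy3 array and -0.30 without the 20-week Cy5 array. Psma2 had the lowest mean over both ages of the group, with -0.45, -0.31, -0.24 and -0.35 on the 4 arrays. It was below 0 on each of them, with means of -0.38 ± 0.098 (SD, n = 2) at 11 weeks (adjusted p = 0.0133) and -0.30 ± 0.073 at 20 weeks (adjusted p = 0.0122) in the limma model with a dye term. Its 20-week value in that model was -0.18 if the 20-week Cy3 array was left out. Psma4 was at -0.27, -0.45, 0.00 and -0.23, and Psma5 at -0.32, -0.19, -0.22 and -0.21. Psma4 passed at 11 weeks (mean -0.36, adjusted p = 0.0126) and not at 20 weeks (-0.11, 0.205), and Psma5 at both (-0.25 and -0.21, with adjusted p of 0.0418 and 0.0344).

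Psma6, at -0.37, -0.20, -0.11 and -0.08, passed at 11 weeks (mean -0.28, adjusted p = 0.0318) and not at 20 weeks (0.294). Centred on all probes, neither Psma5 nor Psma6 passed at 11 weeks. Psma1 was at -0.47, 0.15, -0.41 and -0.02, so its 11-week arrays lay on opposite sides of 0 and differed by dye. Its 20-week mean of -0.22 ± 0.28 passed (adjusted p = 0.0402), but the value was -0.10 without the 20-week Cy3 array and -0.33 without the Cy5 array. Psma3 differed most between arrays, from -0.75 to 0.20 at 11 weeks, and passed at neither age (means -0.27 and -0.14).

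The standard beta subunits had medians of -0.19 at 11 weeks and -0.22 at 20 weeks. Among those that cut no peptide bond, Psmb4 was at -0.41, -0.33, -0.28 and -0.31, and Psmb2 at -0.42, -0.36, -0.19 and -0.21. Both were below 0 on every array with little spread, which for Psmb2 is the spread of an average of 2 probes. Fitted singly, the Psmb2 probes both passed at 11 weeks (adjusted p = 0.00562 and 0.0481) and neither at 20 weeks (0.0762 and 0.0552). Psmb4 had means of -0.37 ± 0.057 and -0.29 ± 0.018 (adjusted p = 0.0122 and 0.00945), and Psmb2 of -0.39 ± 0.047 and -0.20 ± 0.011 (adjusted p = 0.00942 and 0.0416). Psmb3 went the other way at 20 weeks, at 0.23, -0.19, 0.45 and -0.03, with a mean of 0.21 ± 0.34 that passed as higher (adjusted p = 0.0363) although the arrays lay on opposite sides of 0. Centred on all probes it did not pass (0.19). Psmb1 passed at neither age, with means of -0.03 ± 0.50 and -0.13 ± 0.25.

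The 3 standard catalytic subunits carry the chymotrypsin-like (Psmb5), caspase-like (Psmb6) and trypsin-like (Psmb7) activities, and all 3 passed as lower at 20 weeks. Psmb5 was the steadiest member, at -0.21, -0.23, -0.24 and -0.21. Its mean was -0.22 at both ages, a 1.17-fold lower ratio, with an adjusted p of 0.0605 at 11 weeks and 0.0271 at 20 weeks. Psmb7 was at -0.60, 0.22, -0.63 and -0.05, so the low values were those with the older retina in Cy5. Its 20-week mean of -0.34 ± 0.41 passed (adjusted p = 0.00643) and was -0.22 without the 20-week Cy3 array. Psmb6 was at -0.32, 0.14, -0.43 and -0.01, so its low values too were those with the older retina in Cy5. It had means of -0.09 ± 0.32 at 11 weeks and -0.22 ± 0.30 at 20 weeks, and passed at 20 weeks (adjusted p = 0.0278).

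Proteasome subunit genes are known targets of the transcription factor Nrf1, the product of Nfe2l1, which restores proteasome levels when the protease is inhibited. It binds antioxidant response elements, searched here as TGACNNNGC on both strands. The promoters of Psmb2, Psmb5 and Psmb6, all 3 passed as lower at 20 weeks, are shown because they hold a match on the gene's own strand. Psmd9, which did not pass, holds such a match too and is not shown. They are the 120 bases before the gene start in the RefSeq promoter table, build GRCr8, written 5′ to 3′ on the strand of the gene, at chr5:144254938-144255057 (plus strand), chr15:32047380-32047499 (minus strand) and chr10:55737768-55737887 (plus strand). Capitals mark the match, which in Psmb2 shares a base with a CCAAT box, also in capitals:
Psmb2: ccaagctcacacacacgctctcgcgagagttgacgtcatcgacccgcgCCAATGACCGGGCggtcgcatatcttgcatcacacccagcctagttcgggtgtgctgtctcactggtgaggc
Psmb5: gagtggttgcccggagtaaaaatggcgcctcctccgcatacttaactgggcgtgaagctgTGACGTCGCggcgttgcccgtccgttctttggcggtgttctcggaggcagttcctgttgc
Psmb6: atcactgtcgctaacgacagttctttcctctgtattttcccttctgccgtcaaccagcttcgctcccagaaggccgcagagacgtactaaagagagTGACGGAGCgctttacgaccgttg

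Counted from the gene start, the matches begin at -68 in Psmb2, -60 in Psmb5 and -24 in Psmb6. In the 250 bases before the start, 6 of the 36 members with an entry held the element (16.7%), against 10.1% of all 33469 promoters. Of those 6, 3 passed as lower at 20 weeks (Psmb2, Psmb5 and Psmb6), and Psma3, Psmd9 and Psme4 did not pass. Of the 30 others, 12 passed as lower. At 11 weeks 1 of the 6 and 8 of the 30 passed as lower. A match is a description of the letters and not a sign that the factor binds there.

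Of the 3 immunoproteasome genes none passed at 11 weeks, and 2 passed as lower and 1 as higher at 20 weeks. Their median at 11 weeks was 0.08, but -0.01 without the 11-week Cy5 array and 0.18 without the 11-week Cy3 array. At 20 weeks it was -0.23, and -0.05 without the 20-week Cy5 array. The difference from the standard beta genes was not tested, and the standard gene Psmb3 had the same 11-week mean as Psmb8. Psmb8, which replaces Psmb5, was at 0.15, -0.11, -0.16 and -0.45, so the 20-week arrays were the lower. Its mean was 0.02 ± 0.18 at 11 weeks (adjusted p = 0.871) and -0.31 ± 0.21 at 20 weeks, a 1.24-fold lower ratio that passed (adjusted p = 0.00717). Psmb10, which replaces Psmb7, was at 0.10, 0.06, -0.38 and -0.07, above 0 on both 11-week arrays and below 0 on both 20-week arrays. Its 20-week mean of -0.23 ± 0.22 passed (adjusted p = 0.0470) but was -0.05 without the 20-week Cy5 array and -0.40 without the Cy3 array, and centred on all probes it did not pass. Psmb9, which replaces Psmb6, was at 0.16, 0.00, 0.22 and 0.25, and at no array below 0. Its 20-week mean of 0.23 ± 0.024, a 1.18-fold higher ratio, passed as higher (adjusted p = 0.0283) and was 0.14 without the 20-week Cy3 array.

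Psmb8 and Psmb9 lie beside the peptide transporter genes in the MHC region of chromosome 20, in the order Tap2, Psmb8, Tap1, Psmb9. Tap2, a subunit of the transporter that carries peptides into the endoplasmic reticulum, had a mean of 0.25 ± 0.021 at 11 weeks (adjusted p = 0.0507) and passed as higher at 20 weeks (0.22 ± 0.13, adjusted p = 0.0346). Tap1, its partner, passed as lower at 20 weeks (-0.29 ± 0.31, adjusted p = 0.00958). Along this stretch Psmb8 and Tap1 were thus lower and Tap2 and Psmb9 higher at 20 weeks. Of 10 measured genes of MHC class I peptide loading, 0 passed at 11 weeks, and 3 as higher and 2 as lower at 20 weeks, with medians of 0.02 and 0.15. In this list Erap1, a peptide-trimming peptidase, had the highest 20-week mean (0.70 ± 0.14), and Canx, the chaperone calnexin, the lowest (-0.55 ± 0.086). Among all named genes 17.8% passed as higher and 13.9% as lower at 20 weeks.

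Immunoproteasome genes are highly expressed in leukocytes. Of 15 microglia and leukocyte markers 13 were measured, with medians of 0.07, 0.00, 0.12 and -0.06 on the 4 arrays. At 20 weeks 4 of the 13 passed as higher and 0 as lower, against 17.8% and 13.9% of all named genes. These were C1qb, C1qc, Csf1r (0.20 ± 0.023) and Tyrobp, a signalling adaptor of microglia (0.43 ± 0.26). The 20-week mean of 4 others was below 0, lowest in Cd74 (-0.18 ± 0.041), and none of them passed. C1qb was at 0.30, -0.40, 0.64 and -0.06, on opposite sides of 0 by dye at both ages. C1qc was at 0.48, 0.00, 0.51 and 0.07, so its high values were those with the older retina in Cy5. At 11 weeks C1qc alone passed, as higher, against 2.61% of all named genes. Ptprc had the lowest 11-week mean of these markers (-0.21 ± 0.11). The part of these markers in the immunoproteasome values was not tested. The interferon regulator Irf1, a known inducer of these genes, did not pass (-0.23 ± 0.19 at 11 weeks and -0.05 ± 0.081 at 20 weeks).

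Of the activators, Psme1 and Psme2 together form a ring-shaped cap that interferon induces, Psme3 forms a similar ring in the nucleus, and Psme4 is a large single-chain cap. Psme1 was at -0.15, -0.10, -0.16 and -0.04, and Psme2 at 0.13, 0.01, -0.04 and 0.16. Psme3 was at 0.04, 0.04, 0.03 and -0.31, and Psme4 at -0.25, 0.31, -0.03 and 0.40. Psme1 alone stayed on the same side of 0 on every array, and none of the 4 passed at either age. The value nearest to a call was that of Psme4 at 20 weeks (0.19 ± 0.31, adjusted p = 0.0560), whose arrays differed by dye.

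Promoters of Psmb10 and Psme2 are shown because both hold the core of the interferon-stimulated response element, searched on both strands as GAAA, any 2 bases and GAAA, close to the gene start on the gene's own strand. Both are the last 120 bases before the start from the same RefSeq table (GRCr8), at chr19:50743293-50743412 (minus strand) and chr15:33052752-33052871 (minus strand), with the match in capitals:
Psmb10: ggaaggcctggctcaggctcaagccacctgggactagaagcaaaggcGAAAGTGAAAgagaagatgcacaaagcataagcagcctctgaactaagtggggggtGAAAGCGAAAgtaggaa
Psme2: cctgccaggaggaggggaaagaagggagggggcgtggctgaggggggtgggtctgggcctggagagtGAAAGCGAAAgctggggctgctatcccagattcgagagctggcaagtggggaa

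Psmb10 held 2 such matches and Psme2 held 1. Among the 36 members 5 held the core (13.9%), namely Psma4, Psmb3, Psmb10, Psmd7 and Psme2, against 3.41% of all promoters. Of these 5, 1 passed as lower at 11 weeks (Psma4), and at 20 weeks 2 as lower (Psmb10 and Psmd7) and 1 as higher (Psmb3). Of the 31 others, 8 passed as lower at 11 weeks, and 13 as lower and 2 as higher at 20 weeks. Psme2 did not pass, with a 20-week mean of 0.06 ± 0.14 (adjusted p = 0.547). Psmb8 and Psmb9 held no match.

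**Figure D3:**
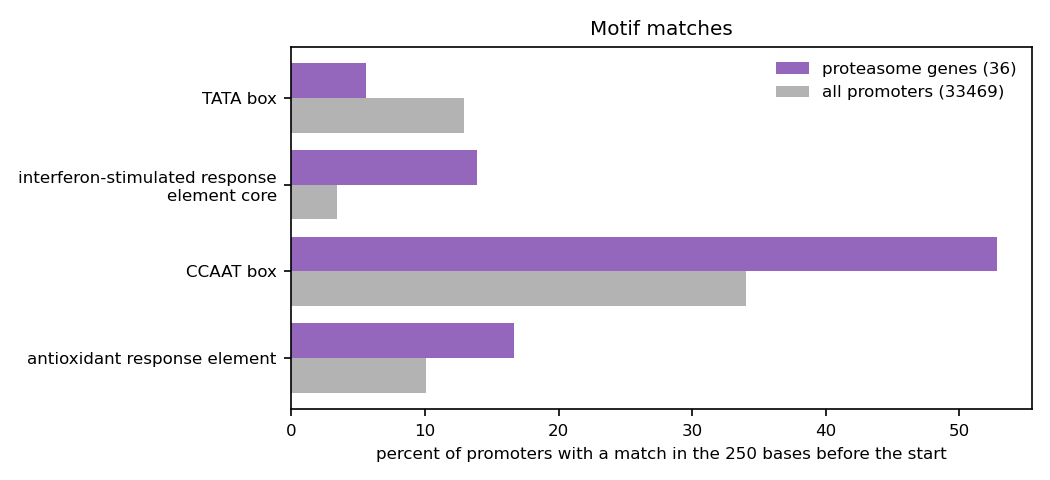
Percent of promoters (x axis) with a match to each of 4 motifs on either strand in the 250 bases before the gene start, for the 36 proteasome genes in the RefSeq table (purple) and all 33469 promoters (grey). The interferon-stimulated response element core stood at 13.9 against 3.41, the CCAAT box at 52.8 against 34, and the TATA box at 5.56 against 12.9.

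Across the motifs searched, the CCAAT box bound by NF-Y was the most frequent, held by 19 of the 36 members (52.8%) against 34% of all promoters. Of these 19, 4 passed as lower at 11 weeks and 7 at 20 weeks, and of the other 17, 5 and 8. The TATA box, searched as TATAAA, was held by 2 members, Psmb1 and Psmd7. The promoters of the members had a median GC content of 56.6%, from 45.2% to 64.8%, against 51.2% over all promoters, which bears on how often each motif occurs. Psmd6 and Psmd12 had no entry.

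In the base of the regulatory particle, 3 of the 6 ATPases passed as lower at 11 weeks, and 2 as lower and 1 as higher at 20 weeks. Psmc4 had the lowest 11-week mean of all 38 members, at -0.39, -0.43, -0.23 and -0.24, with means of -0.41 ± 0.031 (a 1.33-fold lower ratio, adjusted p = 0.00730) and -0.23 ± 0.0071 (adjusted p = 0.0235). Psmc2, at -0.42, -0.29, -0.30 and -0.15, passed as lower at both ages as well (adjusted p = 0.0128 and 0.0270). Psmc6, at -0.45, -0.12, -0.08 and -0.06, passed at 11 weeks (-0.29 ± 0.23, adjusted p = 0.0396), where its value was -0.14 without the 11-week Cy5 array and -0.43 without the Cy3 array. Centred on all probes Psmc6 did not pass. All 3 were below 0 on every array. Psmc1 and Psmc3 passed at neither age, with means of -0.02 and 0.10 at 11 weeks and -0.03 and 0.01 at 20 weeks.

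Psmc5, the remaining ATPase, had the highest 20-week mean of all members. It was at 0.18, -0.17, 0.58 and 0.01, highest on the 20-week Cy5 array. Its 20-week mean of 0.30 ± 0.40, a 1.23-fold higher ratio, passed (adjusted p = 0.0111). Without the 20-week Cy5 array the value was 0.19 in the model with a dye term. Psmd2, the base scaffold that docks ubiquitin shuttle proteins, was at -0.14, -0.12, -0.36 and -0.31. Its 20-week mean of -0.34 ± 0.035 passed (adjusted p = 0.00460), and both of its probes passed at 20 weeks when probes were fitted singly (-0.39 and -0.28, adjusted p = 0.00312 and 0.0144). Psmd4, a ubiquitin receptor of the base, passed at neither age, with means of -0.03 and -0.01.

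The lid had a median of -0.05 at 11 weeks, which was 0.08 without the 11-week Cy5 array and -0.15 without the 11-week Cy3 array. At 20 weeks it was -0.10, and 0.02 and -0.23 without the 20-week Cy3 and Cy5 array. Its lowest member, and the lowest of all 38 at 20 weeks, was Psmd7, the partner of the deubiquitinase Psmd14, at -0.42, 0.02, -0.43 and -0.50. It was below 0 on 3 of the 4 arrays, and its 20-week mean of -0.47 ± 0.050, a 1.38-fold lower ratio, passed (adjusted p = 0.00390). In the model with a dye term the value was -0.21 without the 20-week Cy3 array and -0.72 without the Cy5 array. Psmd3, a scaffold of the lid, had 0.08 ± 0.18 at 11 weeks and -0.21 ± 0.18 at 20 weeks, where it passed (adjusted p = 0.0361). Psmd12, the highest of the group over both ages, was at -0.24, 0.13, -0.12 and 0.13, on opposite sides of 0 at both ages. Psmd6, Psmd8 and Psmd13 passed at neither age, with 20-week means of -0.07, -0.13 and -0.05.

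The promoter of Psmd7 is shown as that of the member with the lowest 20-week value. It is the 250 bases before the start at chr19:52411317-52411566 (minus strand), GRCr8, with matches to the CCAAT box, TATA box and interferon-stimulated response element core on either strand in capitals:
Psmd7: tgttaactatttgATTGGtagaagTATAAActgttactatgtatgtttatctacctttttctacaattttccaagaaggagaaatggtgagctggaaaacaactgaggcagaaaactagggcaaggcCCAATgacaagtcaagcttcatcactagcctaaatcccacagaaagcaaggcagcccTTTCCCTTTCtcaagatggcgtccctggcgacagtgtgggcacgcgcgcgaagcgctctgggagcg

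No match to the antioxidant response element was found in this window. Its TATA box match begins at -226 from the start.

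The chaperones Psmd5, Psmd9 and Psmd10 help to assemble the base and leave the finished particle. Psmd5 was at -0.10, -0.14, -0.04 and -0.18, and Psmd9 at 0.27, -0.27, 0.40 and -0.10. Psmd9 was above 0 with the older retina in Cy5 and below it in Cy3 at both ages, and neither passed. Psmd10, also called gankyrin, did not pass either (-0.05 ± 0.11 and 0.04 ± 0.19). Psmc3ip, which the rule takes in by its symbol, is a factor of meiotic recombination and no subunit. It had means of -0.20 ± 0.040 and -0.12 ± 0.056 and did not pass, and without it the medians of the other 37 genes were -0.09 and -0.13.

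**Figure D4:**
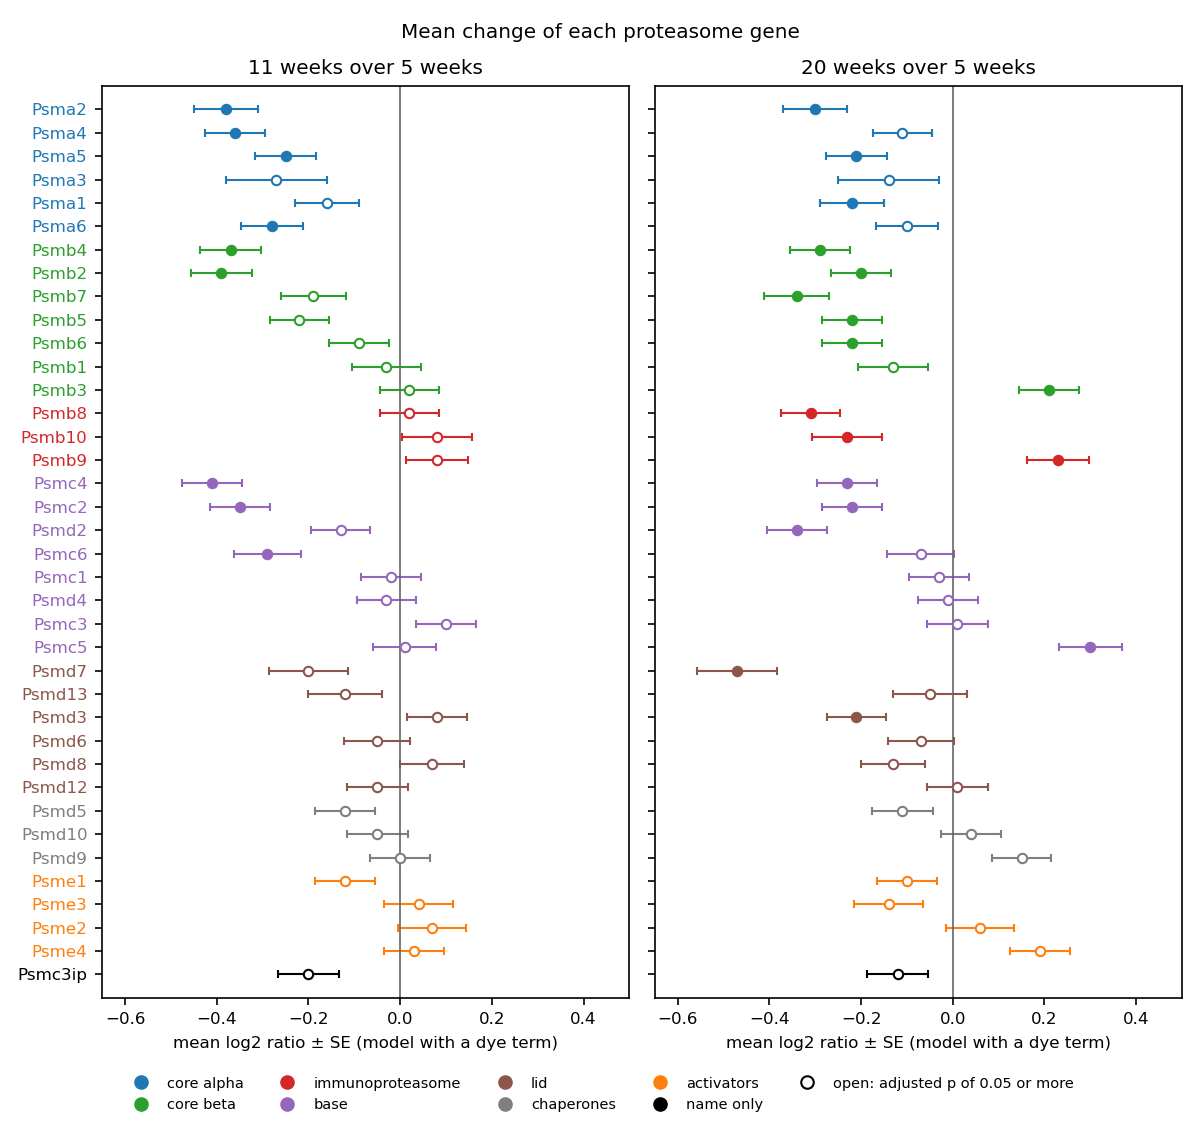
Mean log2 ratio of the older over the 5-week retina for each of the 38 proteasome genes at 11 weeks (left) and 20 weeks (right), with bars for the standard error in the limma model with a dye term. Filled points passed at an adjusted p under 0.05: 9 to the left of 0 at 11 weeks, and 15 to the left and 3 to the right (Psmb3, Psmb9 and Psmc5) at 20 weeks.

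The 5 genes with 2 probes show how far a value rests on the probe. Both probes of Psmb2 and both of Psmd2 lay below 0 at both ages. Those of Psmd5 lay on opposite sides of 0, at -0.28 and 0.03 at 11 weeks and -0.33 and 0.11 at 20 weeks, and the first of them passed at 20 weeks when probes were fitted singly (adjusted p = 0.0149). Psmd12 had probe means of 0.03 and -0.13 at 11 weeks and 0.09 and -0.08 at 20 weeks. Psma4 had -0.24 and -0.48 at 11 weeks. The probes of Psma4 and of Psmd5 differed by over 0.5 on 2 arrays, and those of Psmb2 on 1 array. In the gene table of GRCr8, 15 members have same-named pseudogenes, 39 in all, with 7 named after Psmb3 and 5 after Psma6. Probe sequences were not used here, so whether a probe also binds such a copy was not tested.

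**Figure D5:**
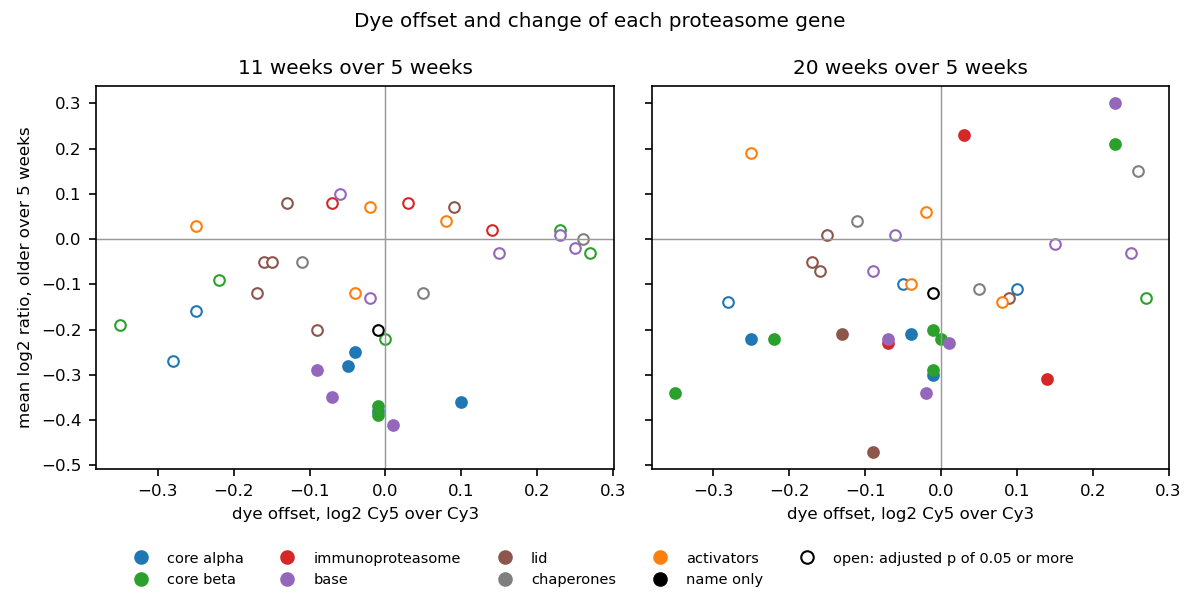
Mean log2 ratio of the older over the 5-week retina (y axis) against the dye offset of the gene, log2 of Cy5 over Cy3 over the 4 arrays (x axis), for the 38 proteasome genes at 11 weeks (left) and 20 weeks (right). Filled points passed; at 11 weeks 8 of the 9 that passed have an offset between -0.1 and 0.1, and at 20 weeks 10 of the 15 that passed as lower.

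In the plot of dye offset against change, 20 of the 38 members had an offset between -0.1 and 0.1, among them 8 of the 9 that passed at 11 weeks. Of all named genes 4190 lay in that class, among them 311 of the 612 that passed as lower at 11 weeks, and the part of the dye in these calls was not tested. Between 11 and 20 weeks, compared through the 5-week retina, 0 of the 38 members passed in either direction in either limma model, against 3.55% of all named genes higher and 1.18% lower with a dye term. At an unadjusted p under 0.05 there were 4 members lower and 2 higher with a dye term, 15.8% against 20.2% of all named genes, and 0 without it, against 2.8%. The largest differences were those of Psmb8, lower at 20 than at 11 weeks by -0.33 (adjusted p = 0.0768), and Psmb10, by -0.30 (0.147), and on the higher side Psmc5, by 0.29 (0.130). Each array had its own chip number, so the chip is part of the spread between arrays. The chip numbers in the titles are consecutive within each age and not between the ages. A difference between the 2 sets of chips thus cannot be told apart from one between 11 and 20 weeks. Members that passed at 20 weeks only are therefore not shown to differ between the ages.

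Outside the members, other genes of the pathway were taken from lists of known members. Beside their counts stand the shares of all named genes that passed. These were 6.34% lower and 2.61% higher at 11 weeks, and 13.9% lower and 17.8% higher at 20 weeks. Of 9 further assembly factors and the inhibitor, 5 were measured, with medians of -0.19 at 11 weeks and -0.18 at 20 weeks. Pomp, the chaperone that matures the core, passed as lower at both ages (-0.47 ± 0.039 and -0.29 ± 0.046, adjusted p = 0.00527 and 0.0106). Akirin2, which carries proteasomes into the nucleus, had 0.06 ± 0.22 at 11 weeks and passed as lower at 20 weeks (-0.70 ± 0.22). Psmf1, a proteasome inhibitor, did not pass (-0.19 and -0.18). Of 11 measured ubiquitin receptors, shuttles and deubiquitinases, 1 passed as lower at 11 weeks and 4 at 20 weeks, 0 as higher at either age, with medians of -0.09 and -0.14. These were Sem1, a small lid subunit, at 11 weeks (-0.41 ± 0.42), and at 20 weeks Rad23b, a shuttle (-0.55 ± 0.080), Ubqln2, Ubqln4 and the ubiquitin receptor Adrm1 (-0.24 ± 0.33).

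Of 18 measured E1 and E2 genes, 2 passed as lower and 0 as higher at 11 weeks, and 4 as lower and 3 as higher at 20 weeks, with medians of -0.05 and -0.06. Among them Uba2, Uba3, Uba7 and Ube2m serve ubiquitin-like modifiers rather than ubiquitin. Uba3 passed as lower at 11 weeks, and Uba2 as lower and Uba7 as higher at 20 weeks. Ube2d3, an E2 enzyme, had -0.38 ± 0.57 at 11 weeks, and Ube2b, another, had the highest 20-week mean (0.48 ± 0.037). Of 10 genes of the unfoldase p97 and its cofactors, 1 passed as lower at 11 weeks, and 4 as lower and 2 as higher at 20 weeks, with medians of -0.08 and -0.14. Ufd1, a p97 adaptor, passed as lower at both ages (-0.41 ± 0.071 and -0.26 ± 0.073), and Vcp, p97 itself, at 20 weeks (-0.23 ± 0.29). Sel1l, of the ubiquitin ligase complex in the endoplasmic reticulum, passed as higher at 20 weeks (0.33 ± 0.15). Among all named genes 6.34% passed as lower and 2.61% as higher at 11 weeks, and 13.9% and 17.8% at 20 weeks.

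Of 8 measured transcription factors known to act on proteasome genes, 1 passed as higher and 1 as lower at 11 weeks, and 2 as higher at 20 weeks. Among all named genes 2.61% passed as higher and 6.34% as lower at 11 weeks, and 17.8% and 13.9% at 20 weeks. Nfe2l2, the relative of Nrf1, did not pass (0.02 ± 0.38 and 0.07 ± 0.32), and Nfe2l1 itself was not analysed here. Mafg, a small Maf partner of these factors, had -0.22 ± 0.27 at 11 weeks and 0.85 ± 0.55 at 20 weeks, where it passed. Of the NF-Y subunits, Nfyb passed as lower at 11 weeks (-0.40 ± 0.29) and Nfyc as higher at both ages (0.25 ± 0.095 and 0.30 ± 0.12).

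Markers of cells in or around the retina are given beside the shares of all named genes. These were 6.34% lower and 2.61% higher at 11 weeks, and 13.9% lower and 17.8% higher at 20 weeks. Of 6 measured rod markers, 5 passed as lower at 11 weeks and 3 at 20 weeks, with medians of -0.42 and -0.30 and array medians of -0.25, -0.75, -0.06 and -0.71. The median dye offset of the rod markers was 0.32, and 2 of them were split between the arrays at each age. Of 5 lens markers, 3 passed as lower at each age (medians -0.55 and -0.29), the crystallins Cryaa, Cryba4 and Crybb2. The other lens markers, Bfsp1 (0.01 and 0.08) and Lim2 (0.00 and 0.10), did not pass. Of 4 pigment epithelium and choroid markers, 1 passed as lower and 1 as higher at 11 weeks, and 2 as higher at 20 weeks. Of 2 blood markers 0 passed at 11 weeks and 1, Alas2, as higher at 20 weeks. Alas2 was at 0.71, -0.53, 0.73 and -0.23, on opposite sides of 0 by dye at both ages. The part of these markers in the values of the proteasome genes was not tested.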

How the data were processed

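Gene expression was measured on 4 two-colour arrays of rat retina. As deposited, an array's values are log2 channel ratios, judged so from the values, which reach a ceiling at the log2 of 100000. Image software, normalization and centring are not stated in the labels. Spot intensities were not used, so no background filter was possible.

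Gene names came from the platform annotation: 12750 of 22575 had 1 gene, 5 several and 9820 none. The identifiers of all 38 members were found under the same symbol in the gene table of GRCr8. Ceiling values (251 probes, none named) were dropped, the median of the named probes was subtracted within every array, ratios were turned to older over 5 weeks, and probes averaged per gene. Before centring the medians over all probes were -0.05 and -0.14 on the 11-week arrays (Cy5, Cy3) and 0.55 and -0.03 on the 20-week arrays.

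limma 3.58.1 (R 4.3.3) fitted all named genes over the 4 arrays without a dye term (2 residual degrees of freedom, reported first) and with a gene-wise dye term (1), two-sided. Both were tested on simulated data. Alternatives were the centring, the probes fitted, the ceiling, the direction and leaving out each array. Genes given with all arrays were the immunoproteasome and activator genes, up to 12 members passed per comparison, and the highest and lowest of each role. Members and lists were chosen with earlier results of these data known. Promoters and their motifs came from RefSeq (Python 3.11.15). A result on an item withheld for evaluation is not reported here.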

Additional observations from a re-analysis of the deposited data

Results flagged for a closer look

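Psmb10 lay above the median gene on both 11-week arrays (0.10 and 0.06) and below it on both 20-week arrays (-0.38 and -0.07), so its values lay on opposite sides of 0 at the 2 ages. The 11-week mean of 0.08 did not pass (adjusted p = 0.531) and was -0.10 without the 11-week Cy5 array and 0.26 without the 11-week Cy3 array. As deposited the means were above 0 at both ages (0.12 and 0.05). The difference, 20 against 11 weeks, was -0.30 and did not pass in the limma model with a dye term (adjusted p = 0.147).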

How the results depend on the processing

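No member passed without a dye term, nor when any array was left out of that model (0 members each time, lowest and highest). With a dye term 9 members were lower at 11 weeks, and 15 lower and 3 higher at 20 weeks. These counts fell to 0, 0 and 0 as deposited without centring, and to 0, 1 and 0 with all probes fitted and used for centring. With the direction of the ratio turned, the counts are exchanged: 9 higher and 0 lower at 11 weeks, 15 higher and 3 lower at 20 weeks. Centring on all probes gave 6 lower at 11 weeks, without Psma5, Psma6 and Psmc6, and 14 lower and 2 higher at 20 weeks, without Psmb10 and Psmb3. Keeping the ceiling values kept each count within 1.5 times. Fitting probes singly did so too, but that is a count of probes and not of genes. At 20 weeks it held neither probe of Psmb2, both probes of Psmd2, and a probe of Psmd5, a gene that did not pass. The 20 against 11 weeks counts stayed at 0 under every alternative run. As deposited, 9 members passed as lower at 20 weeks had values above 0: Psma1 0.06, Psma5 0.06, Psmb2 0.08, Psmb5 0.05, Psmb6 0.05, Psmb10 0.05, Psmc2 0.05, Psmc4 0.04 and Psmd3 0.07. The cause of these dependences was not tested, other than that the deposited 20-week ratios are shifted by 0.29 at the median gene. With a dye term and an array left out no residual degree of freedom remains, so only values were compared. No paired analysis was possible because the labels give no replicate numbers. Signal over background was not used here, so dim probes could not be told apart.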

Other observations

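The members also differed in their dye offset, the log2 ratio of Cy5 over Cy3 that the model estimates for a gene over the 4 arrays, whatever the age. The 8 members with an offset above 0.1 had changes near 0 at 11 weeks, with a median of -0.01 and a range from -0.36 to 0.02, and 1 of them, Psma4, passed as lower. The 20 members with an offset between -0.1 and 0.1 had a median of -0.20, and 8 passed as lower. The 10 members with an offset below -0.1 had a median of -0.07, and 0 passed. At 20 weeks the medians were -0.02, -0.17 and -0.11 in the same order, with 1, 10 and 4 members lower and 2, 1 and 0 higher. Of all named genes, 140 of 2770, 311 of 4190 and 161 of 2692 were lower at 11 weeks in these classes, and 279, 590 and 473 were lower and 741, 638 and 336 higher at 20 weeks. Over all named genes the 11-week medians were 0.04, 0.01 and 0.00 in the same classes and the 20-week medians 0.08, 0.00 and -0.03. The limit of 0.1 was chosen after the values were seen, so these counts are a description, and their cause was not tested.

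Probes of 1 gene could differ in offset as well. For Psmd5, the probe with an offset of 0.31 had means of 0.03 and 0.11 at 11 and 20 weeks, and the probe with an offset of -0.22 had -0.28 and -0.33. For Psma4, the probe with an offset of 0.28 had -0.24 and -0.04, and that with -0.08 had -0.48 and -0.19. For Psmb2, the probe with an offset of 0.11 had -0.49 and -0.18, and that with -0.14 had -0.28 and -0.22, so the higher offset did not go with the smaller change there at 11 weeks.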
